A study of Mus musculus with 15 samples.

Results

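miR-21a is a mouse microRNA with 2 mature arms, miR-21a-5p and miR-21a-3p, and both were followed through 15 small RNA libraries of a Her2 breast cancer model. Reads of 18 to 26 bases were given to an arm when their first 18 bases matched it exactly, and the same rule applied to every other mouse miRNA arm found 684 arms with reads. Of 627951 distinct insert sequences in the series, 199 belonged to miR-21a-5p and 98 to miR-21a-3p, with 601797 and 1283 reads. The libraries form 5 groups of 3. TUBO exosomes were isolated from the medium of TUBO cultures, and TUBO supernatant is what remained after that isolation. TUBO cells are a breast cancer line derived from tumours of Balb-NeuT mice, which carry a Neu transgene. MM3MG-Her2 is the MM3MG line after transduction with retroviral pLSXN-Neu particles, and MM3MG is the untransduced mammary epithelial line of BALB/c origin. All cultures were kept in DMEM with 10% FCS and received no treatment. Each line is a single line, so a difference between lines is a difference between those cultures, and the series' stated aim was to find miRNAs that bear on the progesterone receptor. The sources used here do not say whether replicates are separate cultures, so p-values measure the spread between these libraries, which may be technical.

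A miRNA hairpin is cut by Drosha and Dicer into a short duplex, and Argonaute usually keeps 1 arm, the guide, while the other arm is lost. In miR-21 the guide is the 5p arm. It represses Pdcd4, among other targets, and is known as an oncomiR that STAT3 and AP-1 can induce. Its bases 2 to 8, the seed, choose its targets, while its 3′ end can be trimmed or extended, and in human cells the enzymes PAPD5 and PARN add adenosine to miR-21 and remove it. Bovine miR-21 has the same guide sequence, so reads that came with the serum in the medium cannot be told apart from mouse reads.

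The Mir21a hairpin lies at chr11:86584067-86584158 on the minus strand of GRCm38, inside exon 12 of Vmp1 (transcript Vmp1-201), in its 3′ untranslated region. The miR-21a-5p sequence lies at chr11:86584120-86584141 and miR-21a-3p at chr11:86584082-86584103. The mature sequences are from RefSeq on GRCm38.p6, with the seed in capitals, and are shown because seed and first 18 bases decide which reads can be told apart.
miR-21a-5p: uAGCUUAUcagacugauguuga
miR-21c: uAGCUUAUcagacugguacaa
miR-21b: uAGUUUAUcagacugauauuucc
miR-21a-3p: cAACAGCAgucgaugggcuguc
miR-21c has the same seed as miR-21a-5p and miR-21b has another, and each differs from miR-21a-5p at 2 of the first 18 bases. Both had 0 reads in all 15 libraries under the match rule. A pair of stretches continues each arm into the hairpin, with the bases past the annotated end in capitals, since a read that ends there can be an uncut extension rather than an added base.
5p arm, chr11:86584116-86584141: tagcttatcagactgatgttgaCTGT
3p arm, chr11:86584078-86584103: caacagcagtcgatgggctgtcTGAC

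Library sizes ran from 196152 to 710902 reads, of which 56397 to 519414 were miRNA reads. The miRNA share of a library was 55.1% to 58.1% in TUBO exosomes, 27.1% to 31.8% in TUBO supernatant, 73.1% to 74.0% in TUBO cells, 47.1% to 51.6% in MM3MG-Her2 and 67.4% to 73.5% in MM3MG. Small RNA does not measure Her2 or Neu, so the transduction itself could not be checked. Epithelial marker miRNAs (the miR-200 family, miR-203 and miR-205, 7 arms) summed to 20150 to 22563 CPM (counts scaled to 1000000 miRNA reads of the library) in exosomes, 8197 to 14983 CPM in supernatant and 25388 to 26674 CPM in TUBO cells. They summed to only 12.2 to 42.1 CPM in MM3MG-Her2 and 21.4 to 33.0 CPM in MM3MG, which goes against the epithelial label of that line. Stromal markers (6 arms) summed to 48532 to 48693 CPM in TUBO cells, 96626 to 100874 CPM in MM3MG-Her2 and 172735 to 192805 CPM in MM3MG. In TUBO cells nearly all of that was miR-143-3p (48331 CPM), while miR-199a-3p averaged 81.2 CPM there, 30788 CPM in MM3MG-Her2 and 59316 CPM in MM3MG, and miR-214-3p had 0 reads in TUBO cells. Blood markers, of which 2 of the 9 listed were not analysed here, summed to 10903, 12130 and 26103 CPM in exosomes 1 to 3, to 3337, 3014 and 7388 CPM in supernatant 1 to 3 and to 129 to 155 CPM in TUBO cells. Number 3 of both secreted fractions stood apart from its group, and the fitted differences of miR-21a in level, arm ratio and 3′ ends are also given without both libraries, while the permutation tests and the list of linked miRNAs were not repeated without them.

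miR-21a-5p was the most abundant miRNA of both MM3MG lines and the next after miR-30a-5p in TUBO cells. In MM3MG-Her2 it had 280938, 310444 and 332242 CPM, against 220160, 199030 and 223701 CPM in MM3MG. The groups did not overlap, as was so for 66.1% of 245 arms, and the arm was 28.1% to 33.2% of all miRNA reads in MM3MG-Her2. Over miRNA reads it was higher in MM3MG-Her2 by 0.49 ± 0.09 (log2, SE, n = 3 per group, edgeR adjusted p = 5.4e-05), with a 95% interval of 0.30 to 0.68. This call depends on the denominator. Scaled to 1000000 reads of any kind instead, miR-21a-5p stood at 132352, 160294 and 161815 in MM3MG-Her2 and at 148367, 144577 and 164437 in MM3MG, and the groups overlapped. With all reads as library size the log2 difference was −0.0092 (edgeR adjusted p = 0.959), and with 1 substitution allowed in the first 18 bases, which drops arms that are then not unique, it was 0.16 (adjusted p = 0.164). Of the arms tested, 29.0% were called higher in MM3MG-Her2, and the median log2 change of all arms was −0.02.

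The passenger arm moved further in the same comparison. miR-21a-3p had 880, 810 and 861 CPM in MM3MG-Her2, against 387, 330 and 426 CPM in MM3MG. In CPM every MM3MG-Her2 library lay above every MM3MG library, where 66.1% of 245 arms had no overlap and 29.0% were called higher. The read counts themselves overlapped, at 143 to 199 in MM3MG-Her2 and 109 to 154 in MM3MG. The arm rose by 1.14 ± 0.16 (log2, SE, n = 3 per group, edgeR adjusted p = 1.1e-06), and the rise passed the test under each alternative tried, at 0.63 to 1.32.

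TUBO cells held less miR-21a than either MM3MG line. They had 80982, 79242 and 78483 CPM of miR-21a-5p, below all 6 libraries of the MM3MG lines, and 83.3% and 80.8% of arms had no overlap with MM3MG and with MM3MG-Her2. The arm was lower than in MM3MG by −1.75 ± 0.10 (log2, SE, n = 3 per group, edgeR adjusted p = 5.4e-15) and lower than in MM3MG-Her2 by −2.24 ± 0.10 (adjusted p = 5.1e-17). The medians of all arms were −0.44 and −0.66 in these comparisons, and 49.0% and 53.5% of the 245 arms were called lower. The size against MM3MG moved with the settings: it was −1.52 to −1.38 under other scalings, −1.06 with no filter on low counts, −1.09 with starts within 1 base allowed, and −1.15 to −1.10 without MM3MG 3, MM3MG-Her2 3 or any 1 of the TUBO cells libraries, past the threshold each time. Against MM3MG-Her2 it was −1.59 with no filter and −1.37 with all reads as library size. In lysates of whole cultures a lower share of miRNA reads can mean fewer cells that make the miRNA or less of it per cell. A share also falls when other miRNAs rise, and these readings cannot be told apart.

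miR-21a-3p was also lowest in TUBO cells among the lines, at 165, 186 and 166 CPM. It was lower than in MM3MG by −1.46 ± 0.17 (log2, SE, n = 3 per group, edgeR adjusted p = 2.3e-08) and lower than in MM3MG-Her2 by −2.60 ± 0.17 (adjusted p = 5.0e-13). Without MM3MG 3, MM3MG-Her2 3, TUBO cells 1 or TUBO cells 3 the difference from MM3MG was −0.81, −0.84, −0.81 or −0.80, and it was −0.77 with no filter and −0.62 with starts within 1 base, past the threshold in all 6. Against MM3MG-Her2 it was −1.94 with no filter, −1.95 with starts within 1 base and −1.72 with all reads as library size.

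**Figure D1:**
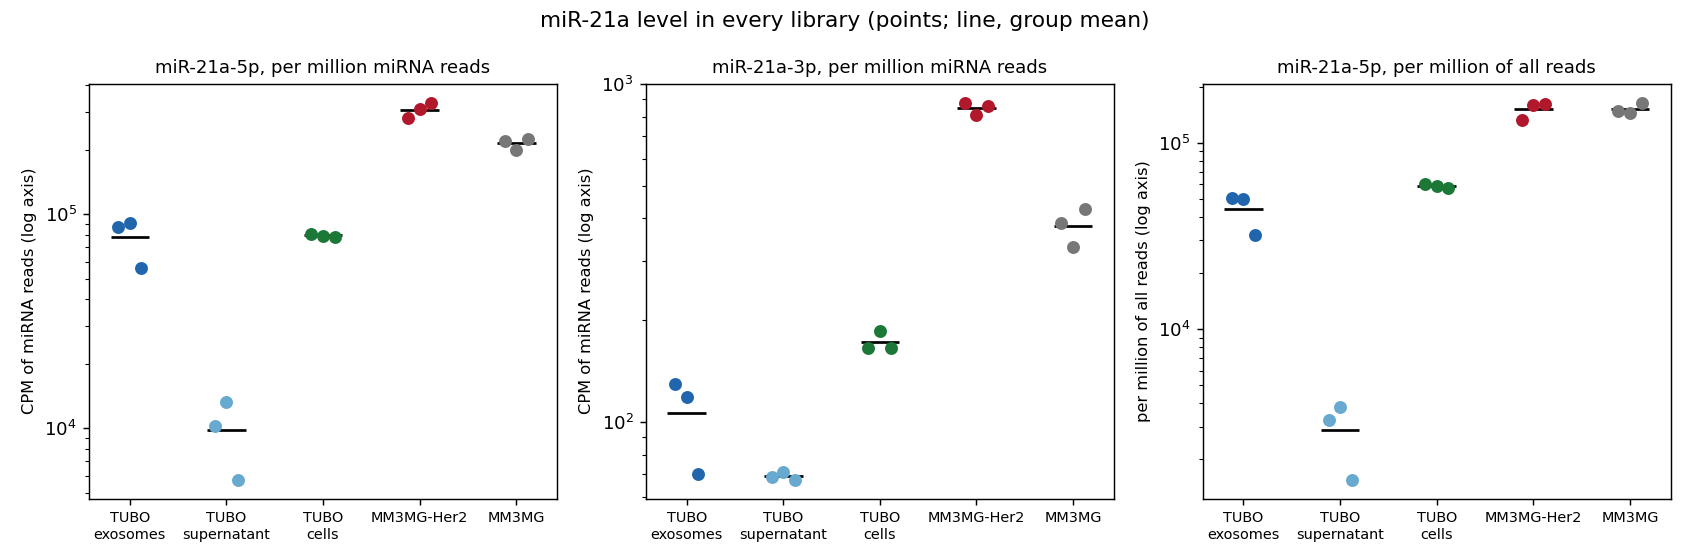
Level of miR-21a-5p and miR-21a-3p in each library, in CPM over miRNA reads, and of miR-21a-5p scaled to all reads, on log axes, with points for libraries and a line at each group's mean. Over miRNA reads both arms are highest in MM3MG-Her2, where miR-21a-5p averages 307875 CPM, and lowest in TUBO supernatant, where it averages 9762 CPM.

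The miR-21a-5p level of exosomes did not differ from that of TUBO cells by the test, and the supernatant left behind held far less of the arm than either. Exosomes 1 to 3 had 87226, 90658 and 55945.5 CPM, which spans the 78483 to 80982 CPM of TUBO cells, and supernatant 1 to 3 had 10258, 13299 and 5730 CPM. The guide arm ranked 2, 2 and 4 among the arms of the exosome libraries and 19, 15 and 21 among those of the supernatant. Exosomes differed from cells by −0.04 ± 0.23 (log2, SE, n = 3 per group, edgeR adjusted p = 0.896), with an interval of −0.52 to 0.44, where 42.9% of 205 arms were called in either direction. Exosome 3 weighs on this value. Without number 3 of exosomes and of supernatant the difference was 0.40, higher in exosomes (adjusted p = 2.5e-05), and without 1 library at a time it ran from −0.091 to 0.32 with no adjusted p under 0.426. Scaled to 1000000 reads of any kind, exosomes had 50703, 49939.9 and 32020, all below the 57343 to 59929 of TUBO cells, and with all reads as library size the difference was −0.40 (adjusted p = 0.258). The arms called fell to 56, 57 and 53 without TUBO cells 1, 2 and 3, against 88 with all libraries.

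miR-21a-5p was higher in exosomes than in supernatant by 2.70 ± 0.24 (log2, SE, n = 3 per group, edgeR adjusted p = 2.1e-08), where 35.6% of arms were called higher and 69.3% had no overlap. It was lower in supernatant than in cells by −2.74 ± 0.24 (adjusted p = 2.0e-08), with 37.6% of arms called lower and 75.6% without overlap. The medians of all arms were 0.15 and −0.22. Without number 3 of both fractions these differences were 3.04 and −2.65, and with all reads as library size they were 3.94 and −4.35. With 1 substitution allowed the exosome to supernatant difference was 3.45. The supernatant libraries held 744, 750 and 425 reads of the arm, while the exosome libraries held 15959 to 29593.

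miR-21a-3p was sparse outside the cells. Exosomes had 44, 28 and 20 reads (130, 119 and 70.1 CPM), all below the 165 to 186 CPM of TUBO cells, and 62.9% of 205 arms had no overlap. The difference was −0.70 ± 0.30 (log2, SE, n = 3 per group, edgeR adjusted p = 0.0671). It passed with DESeq2 (−0.67, adjusted p = 0.0439) and with all reads as library size (−1.06, adjusted p = 0.00997), and was −0.22 without number 3 of both fractions (adjusted p = 0.43). Supernatant had 5, 4 and 5 reads (68.9, 70.9 and 67.4 CPM), and the 95% Wilson interval of a single library ran from 27.6 to 182 CPM at its widest. Supernatant was lower than cells by −0.96 ± 0.42 (adjusted p = 0.0489), a call lost with the replicate number as a block (−0.97, adjusted p = 0.0835), without any 1 of the TUBO cells libraries and without supernatant 1 or 2 (−1.12 to −0.94, adjusted p = 0.066 to 0.0982), while it was −1.17 without number 3 of both fractions (adjusted p = 0.0167). Exosomes against supernatant gave 0.27 ± 0.45 (adjusted p = 0.648, 67.3% of arms called in either direction), 0.95 without number 3 of both fractions (adjusted p = 0.0767), 0.87 with no filter (adjusted p = 0.25) and 1.58 with all reads as library size (adjusted p = 0.00452).

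**Figure D2:**
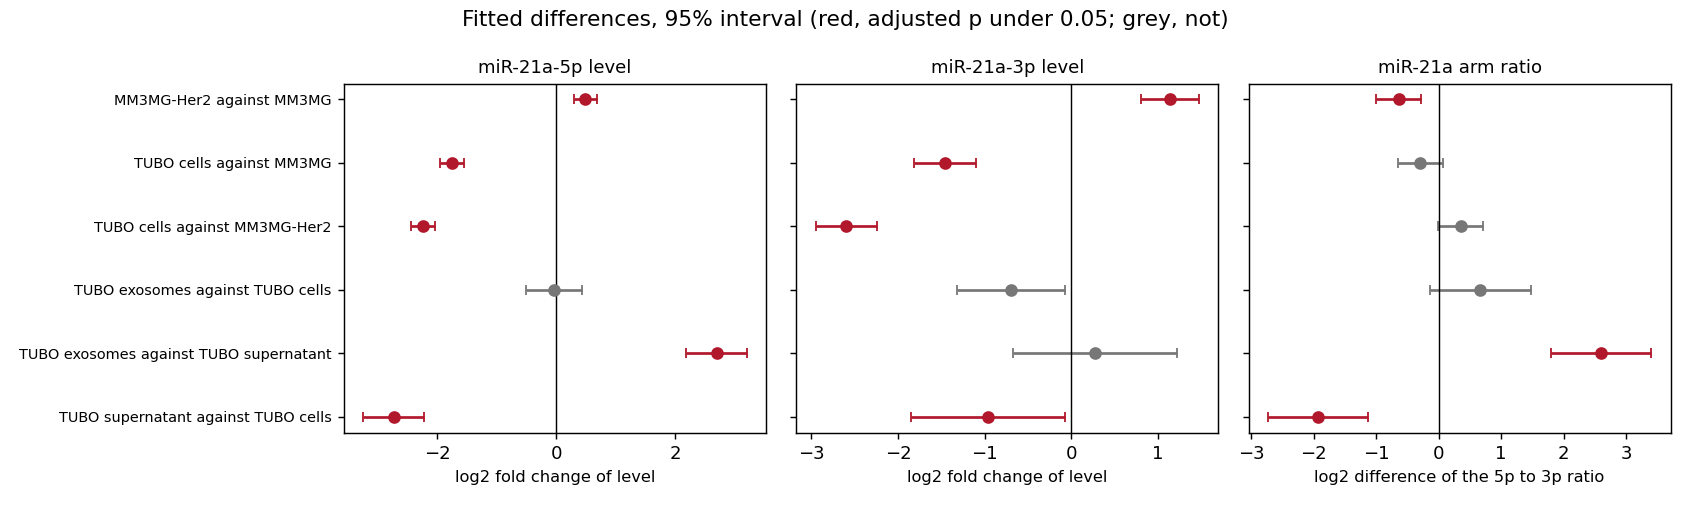
Fitted log2 differences in the level of each arm and in the 5p to 3p ratio for 6 comparisons, first-named group over the second, 3 libraries per group. Bars are 95% intervals and red marks an adjusted p under 0.05. miR-21a-5p differs least between TUBO exosomes and TUBO cells (−0.04) and most between TUBO supernatant and TUBO cells (−2.74).

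The guide arm outnumbered the passenger arm in every library, by 85 times at least. The ratio of miR-21a-5p to miR-21a-3p reads was 673, 764 and 798 in exosomes, 149, 188 and 85 in supernatant and 490, 426 and 474 in TUBO cells. It was 319, 383 and 386 in MM3MG-Her2 and 568, 604 and 525 in MM3MG. Exosomes were highest and supernatant lowest, and no library of a group lay inside the range of another. Of 100 hairpins, 42.0% had no overlap between MM3MG-Her2 and MM3MG, 54.0% between TUBO cells and MM3MG and 39.0% between TUBO cells and MM3MG-Her2. Of 78 hairpins, 51.3% had none between exosomes and cells, 57.7% between exosomes and supernatant and 70.5% between supernatant and cells. All other hairpins pooled had far more balanced arms, at 2.59 to 2.76 in exosomes, 0.738 to 0.947 in supernatant, 2.61 to 2.71 in TUBO cells, 1.13 to 1.23 in MM3MG-Her2 and 1.40 to 1.52 in MM3MG.

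In MM3MG-Her2 the ratio was lower than in MM3MG, where both arms were higher over miRNA reads and the passenger by more. The log2 difference was −0.64 ± 0.17 (SE, n = 3 per group, limma over 100 hairpins, adjusted p = 0.0051), and 19.0% of hairpins were called lower. TUBO cells differed by −0.29 from MM3MG (adjusted p = 0.198, interval −0.65 to 0.07) and by 0.35 from MM3MG-Her2 (adjusted p = 0.161, interval −0.01 to 0.71), so neither passed, where 34.0% and 25.0% of hairpins were called in either direction. Exosomes were higher than supernatant by 2.60 ± 0.37 (limma over 78 hairpins, adjusted p = 5.6e-05, 44.9% called higher), and supernatant was lower than cells by −1.93 ± 0.37 (adjusted p = 7.1e-04, 38.5% called lower). Only 14 passenger reads stand behind the supernatant ratios, and without number 3 of both fractions these differences were 2.23 and −1.61. Exosomes against cells gave 0.67 ± 0.37 (adjusted p = 0.194, 26.9% called in either direction), a difference that passed without supernatant 3 (0.67, adjusted p = 0.0302) and without number 3 of both fractions (0.62, adjusted p = 0.0318). The 3 TUBO groups share 1 estimate of spread, so supernatant libraries enter this p-value. The SD of the log2 ratio was 0.12 in exosomes, 0.11 in cells and 0.57 in supernatant.

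An exact permutation test over the 9 cell libraries gave p = 0.00357 for the arm ratio, the smallest that 1680 divisions into 3 groups of 3 can give, and the 9 TUBO libraries gave the same value (both 0.00595 adjusted over 10 tests). Between 2 groups of 3 an exact test cannot go below 0.1. Set against all other hairpins of the same library, the log2 ratio of miR-21a still differed among the 3 lines (exact permutation p = 0.00357, adjusted 0.00893) and among the TUBO fractions (p = 0.0143, adjusted 0.0198). On that scale MM3MG-Her2 against MM3MG stood at −0.35 and TUBO cells against MM3MG at −1.16. TUBO cells against MM3MG-Her2 changed sign, at −0.81 where miR-21a itself gave 0.35. Exosomes stood at 0.66 against cells and at 0.96 against supernatant, and supernatant and cells overlapped (−0.30). The pooled ratio weights hairpins by their reads, so it also follows which miRNAs are abundant. Over single hairpins the median difference was 0.07 in MM3MG-Her2 against MM3MG. For TUBO cells it was −0.08 against MM3MG and −0.02 against MM3MG-Her2. For exosomes it was −0.22 against cells and 1.13 against supernatant, and for supernatant against cells −0.94.

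**Figure D3:**
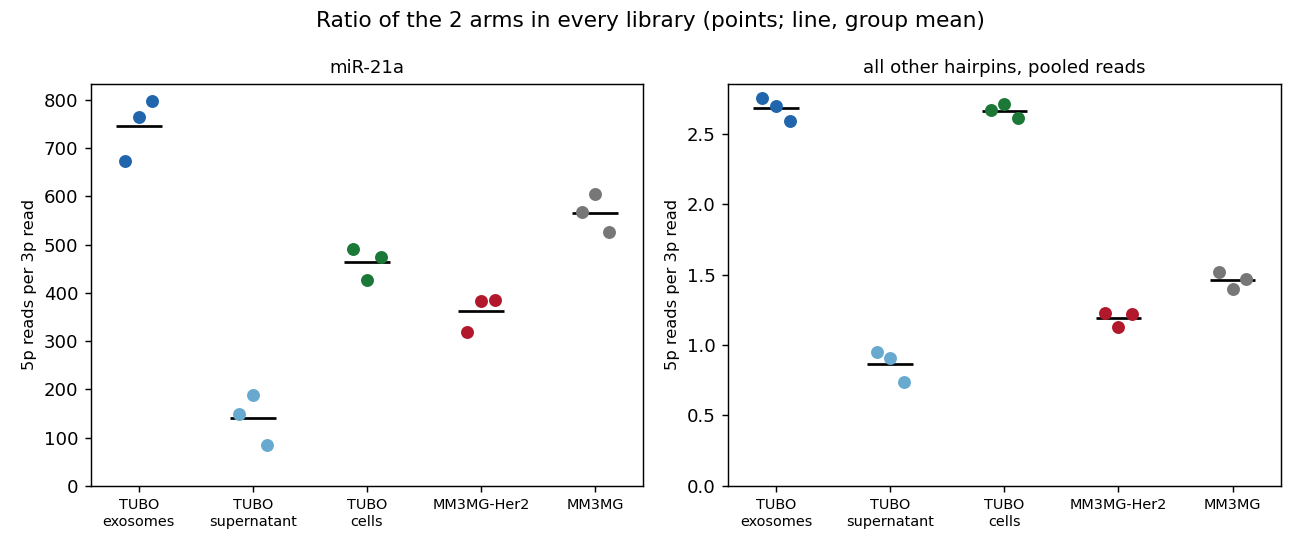
Reads of miR-21a-5p per read of miR-21a-3p in each library (left) and the same ratio for all other hairpins pooled (right), on linear axes from 0, with points for libraries and a line at each group's mean. miR-21a runs from 85 in a supernatant library to 798 in an exosome library, and the other hairpins from 0.738 to 2.76.

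Most miR-21a-5p reads were longer than the annotated 22 bases in every library except supernatant 1 and 2. The forms that made up the arm are given as read, with bases past the annotated end in capitals, because the balance among them is what separated the groups.
23 bases, 1 hairpin base past the end: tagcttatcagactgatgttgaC
22 bases, annotated end: tagcttatcagactgatgttga
21 bases: tagcttatcagactgatgttg
19 bases: tagcttatcagactgatgt
24 bases, 2 hairpin bases past the end: tagcttatcagactgatgttgaCT
24 bases, C added after the hairpin base: tagcttatcagactgatgttgaCC
24 bases, A added after the hairpin base: tagcttatcagactgatgttgaCA
The 23-base form alone averaged 55.1% ± 1.28 of miR-21a-5p reads in exosomes, 43.5% ± 6.35 in supernatant, 68.0% ± 0.775 in TUBO cells, 70.2% ± 2.77 in MM3MG-Her2 and 64.8% ± 2.24 in MM3MG (SD, n = 3 each). Reads were sorted by how far they followed the hairpin: trimmed (templated part shorter than annotated), annotated length, extension (longer and templated by the hairpin), and added A, U or C after the last templated base. Trimmed goes by where the templated part ends, and takes only reads with no tail or a tail of only A or only U. A read with A or U added to a shortened arm therefore counts both as trimmed and as added. A shortened arm with an added C counts as added C only, and any read with a G, mixed or uncalled tail falls in none of these classes. The classes do not sum to a whole. Shares were tested as log2 odds with limma over all arms with enough reads, 132 in the cell lines and 106 in the TUBO fractions.

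**Figure D4:**
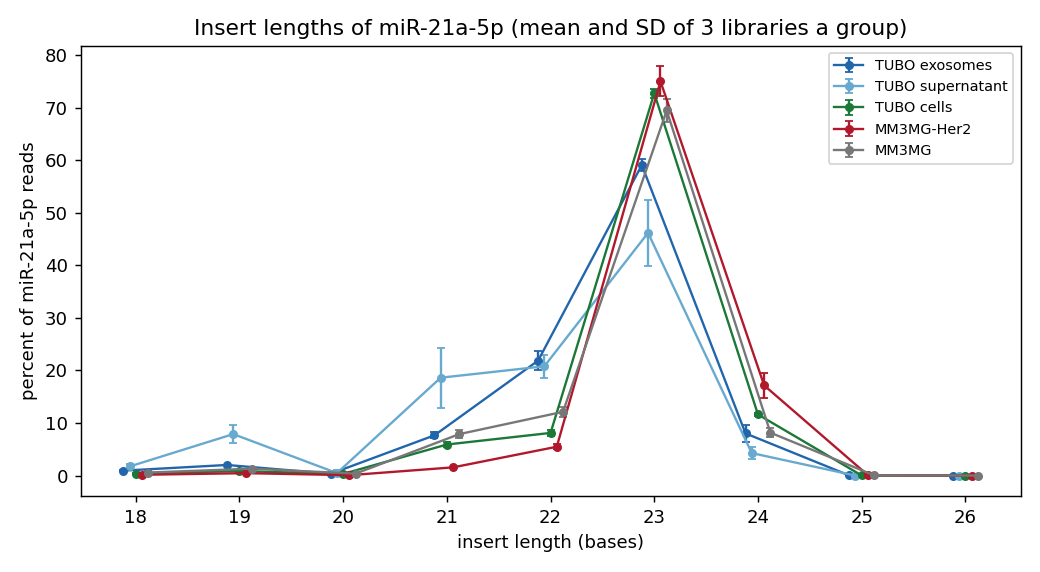
Share of miR-21a-5p reads at each insert length from 18 to 26 bases, in percent, as group means with SD over 3 libraries. Reads of 23 bases lead in every group, while supernatant has the most short reads, with a mean length of 22.05 bases against 22.85 in TUBO cells.

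MM3MG-Her2 had few trimmed guide strands. Trimmed reads were 2.26%, 2.24% and 2.36% of miR-21a-5p in MM3MG-Her2, against 10.3%, 11.2% and 9.15% in MM3MG. The log2 odds were lower by −2.28 ± 0.09 (SE, n = 3 per group, limma adjusted p = 4.7e-07), the 3rd lowest of 132 arms, where 39.4% of arms were called lower and the median was −0.61. The annotated-length form was lower too, at 5.96%, 5.24% and 5.11% in MM3MG-Her2 and 11.6%, 13.1% and 11.4% in MM3MG. That difference of −1.25 ± 0.09 (adjusted p = 1.4e-05) was the 5th lowest of 132 arms, of which 6.06% were called lower and 35.6% higher, with a median of 0.46. Other arms pooled were trimmed in 25.1% of reads in MM3MG-Her2 and 38.2% in MM3MG, and had the annotated length in 35.2% in both.

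What MM3MG-Her2 had instead were longer guide strands. Templated extension made up 76.1% ± 1.87 of miR-21a-5p in MM3MG-Her2 and 68.7% ± 2.25 in MM3MG (SD, n = 3), a log2 odds difference of 0.54 ± 0.09 (SE, limma adjusted p = 0.0032, 19.7% of arms called higher). An added C was found in 7.56%, 6.44% and 5.92% of reads in MM3MG-Her2, against 1.20%, 1.39% and 1.43% in MM3MG. The difference of 2.38 ± 0.12 (adjusted p = 7.3e-09) was the 8th highest of 132 arms, of which 13.6% were called higher. This class was nearly all the CC form, at 6.56% of reads in MM3MG-Her2 and 1.28% in MM3MG, while other arms pooled had an added C in 0.674% and 0.783%. The annotated-length and added C classes were taken up after the shares had been seen. Added A averaged 3.62% in MM3MG-Her2 and 2.63% in MM3MG (0.49, adjusted p = 0.108), and added U 0.168% and 0.218% (−0.37, adjusted p = 0.151), with 8.33% and 23.5% of arms called in either direction. The hairpin base after the 23-base form is T, so a U added to that form reads as the CT form and counts as extension, which keeps the added U share of this arm low by the rule. In the same way, an A added to the 21-base form counts as annotated length. A C added to the 22-base form counts as extension.

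TUBO cells lay between the 2 MM3MG lines in most of these classes. Trimmed reads were 8.05%, 7.46% and 7.04% of their miR-21a-5p, lower than MM3MG by −0.48 ± 0.09 (log2 odds, SE, n = 3 per group, limma adjusted p = 0.0029, 24.2% of arms called lower) and higher than MM3MG-Her2 by 1.79 ± 0.09 (adjusted p = 3.1e-06, 28.0% called higher). The annotated-length form was 8.41%, 8.19% and 7.44%, lower than MM3MG by −0.65 (adjusted p = 6.4e-04, 9.85% called lower) and higher than MM3MG-Her2 by 0.60 (adjusted p = 0.0024, 10.6% called higher). Added C was 2.41%, 2.58% and 2.51%, higher than MM3MG by 0.92 (adjusted p = 3.0e-05, 15.9% called higher) and lower than MM3MG-Her2 by −1.46 (adjusted p = 6.2e-07, 18.9% called lower). No library of TUBO cells overlapped either line in these 3 classes. Against MM3MG the same held for 53.8%, 65.9% and 40.2% of arms in trimmed, annotated-length and added C shares, and against MM3MG-Her2 for 51.5%, 43.2% and 44.7%.

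Extension and added A separated TUBO cells from MM3MG less firmly. Extension averaged 73.2% ± 0.835 in TUBO cells (SD, n = 3), a difference from MM3MG of 0.31 (log2 odds, limma adjusted p = 0.0347, 22.0% called higher) and from MM3MG-Her2 of −0.23 (adjusted p = 0.106, 29.5% called in either direction). Without MM3MG 2, MM3MG-Her2 2 or any 1 TUBO cells library the difference from MM3MG did not pass (0.23 to 0.34, adjusted p = 0.0507 to 0.101), and without MM3MG-Her2 1 that from MM3MG-Her2 did (−0.31, adjusted p = 0.0365). Added A averaged 3.48% ± 0.21 in TUBO cells, with a difference from MM3MG of 0.43 (adjusted p = 0.0451, 8.33% called higher), lost with the replicate block (adjusted p = 0.086) and in 7 of 9 fits that left out 1 library, all but those without MM3MG 2 and MM3MG-Her2 1 (0.26 to 0.49, adjusted p = 0.0542 to 0.115). Added A did not pass against MM3MG-Her2 (−0.06, adjusted p = 0.78, 43.9% called in either direction). Added U passed against neither MM3MG (−0.11, adjusted p = 0.687, 25.8% called in either direction) nor MM3MG-Her2 (0.26, adjusted p = 0.25, 32.6%).

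Over the 3 lines, exact permutation tests on miR-21a-5p gave p = 0.00357 for the trimmed share, 0.00714 for extension, 0.0286 for added A and 0.207 for added U (0.00595, 0.0102, 0.0317 and 0.207 adjusted over 10 tests). The annotated-length and added C shares gave 0.00357 each (0.00714 adjusted over 4 tests). Less the same share of all other arms pooled, each of the 6 classes differed among the lines, with adjusted p from 0.00476 to 0.0198, added U included. On that scale several differences changed sign. Extension stood at −0.75 in MM3MG-Her2 against MM3MG and at −1.58 in TUBO cells against MM3MG, where the shares of miR-21a-5p itself gave 0.54 and 0.31. Trimming in TUBO cells against MM3MG stood at 0.59, where the arm itself gave −0.48. Added U turned to 0.30 in MM3MG-Her2 and 0.79 in TUBO cells against MM3MG, and added A to 1.20 in TUBO cells against MM3MG-Her2, none of which had passed for the arm itself. Pooled shares weight arms by their reads, so they also follow which arms are abundant. Over single arms the median extension difference from MM3MG was 0.32 in MM3MG-Her2 and 0.15 in TUBO cells. Median trimming in TUBO cells against MM3MG was −0.30. The medians of added U were −0.32 and −0.02 against MM3MG, and that of added A was −0.74 in TUBO cells against MM3MG-Her2.

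**Figure D5:**
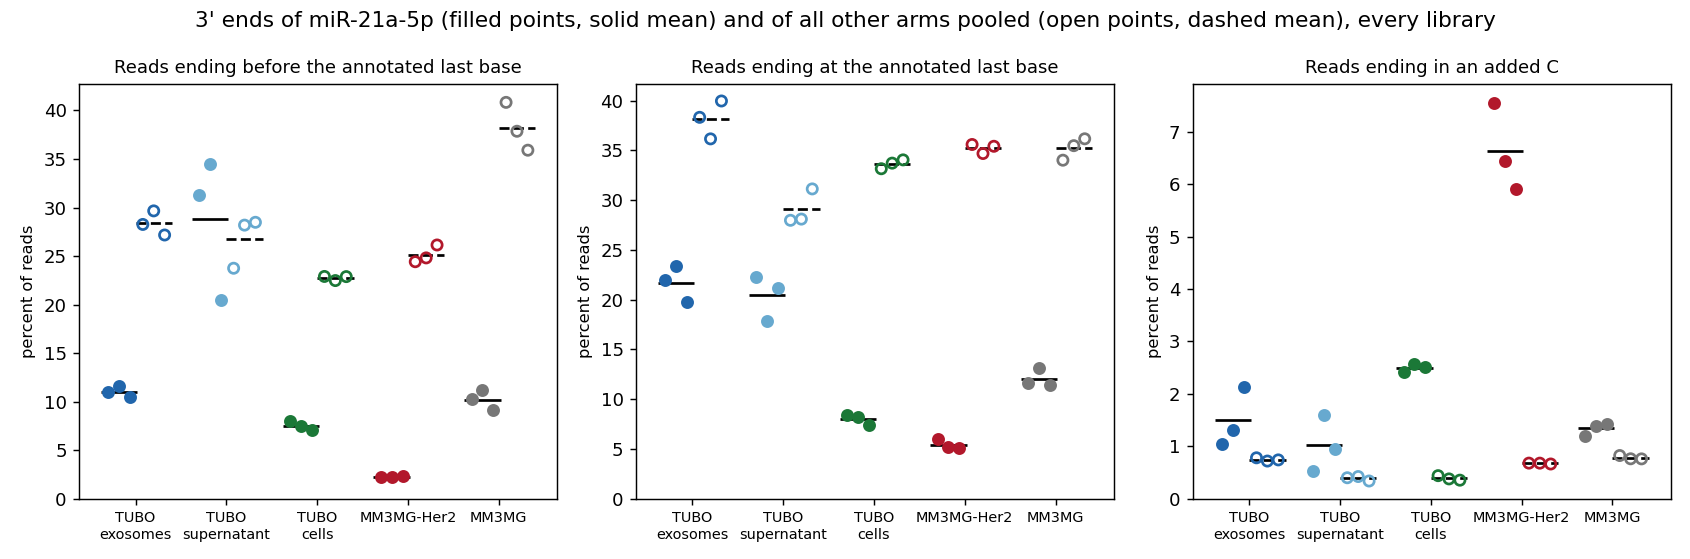
Percent of miR-21a-5p reads that were trimmed, of annotated length or with an added C, by library (filled points, solid line at the mean), beside all other arms pooled (open points, dashed line). Trimmed reads run from 2.24% in an MM3MG-Her2 library to 34.5% in a supernatant library, and annotated-length reads average 21.7% in exosomes against 8.01% in TUBO cells.

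Exosomes and cells differed in the 3′ ends of miR-21a-5p. The annotated 22-base form was 21.9%, 23.4% and 19.8% of the arm in exosomes, against 8.41%, 8.19% and 7.44% in TUBO cells. The log2 odds were higher by 1.67 ± 0.14 (SE, n = 3 per group, limma adjusted p = 9.7e-05), the 4th highest of 106 arms, of which 8.49% were called higher and 16.0% lower, with a median of −0.24. Extension was lower, at 60.0%, 57.6% and 61.7% in exosomes and 72.3%, 73.2% and 74.0% in cells (−0.88 ± 0.20, adjusted p = 0.0309, 6.60% called lower). Added A was 1.77%, 1.95% and 1.94% in exosomes, against 3.55%, 3.24% and 3.64% in cells (−0.90 ± 0.15, adjusted p = 0.0066), and 1.89% of arms were called lower. The groups did not overlap in any of these 3 classes, as was so for 58.5% of arms in annotated length, 52.8% in extension and 35.8% in added A.

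The annotated-length call held in each alternative run, at 1.60 to 1.75. The extension call did not pass with 1 substitution allowed (−0.89, adjusted p = 0.0796), nor without exosome 1, exosome 2 or any 1 TUBO cells library (−0.91 to −0.81, adjusted p = 0.0707 to 0.11). The added A call missed the threshold without exosome 1 (−0.86, adjusted p = 0.0519) or TUBO cells 1 (−0.89, adjusted p = 0.0525). Without number 3 of both fractions the 3 values were 1.75, −0.94 and −0.92 (adjusted p = 4.5e-04, 0.00181 and 0.00255). Trimmed reads were 11.04%, 11.6% and 10.5% in exosomes, above the 7.04% to 8.05% of cells, and 63.2% of 106 arms had no overlap. The difference was 0.61 ± 0.24 (limma adjusted p = 0.118, 13.2% called in either direction). It passed without supernatant 3 (0.61, adjusted p = 0.0024) and without number 3 of both fractions (0.66, adjusted p = 0.0029). Its SE again rests on all 3 TUBO groups, where the SD of the trimmed percent was 0.58 in exosomes, 0.51 in cells and 7.37 in supernatant. Added C (−0.82, adjusted p = 0.279) and added U (0.16, adjusted p = 0.855) did not pass, where 3.77% and 9.43% of arms were called in either direction.

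The guide strands in supernatant were shorter. Trimmed reads made up 31.3%, 34.5% and 20.5% of miR-21a-5p in supernatant, higher than cells by 2.29 ± 0.24 (log2 odds, SE, n = 3 per group, limma adjusted p = 2.9e-05). Of 106 arms 67.9% were called higher, with a median of 1.60. Pooled by reads, however, all other arms were trimmed in 26.8% of reads in supernatant and 22.8% in TUBO cells, and less these the difference of miR-21a-5p was 1.98. The 21-base form was 18.6% of reads in supernatant and 5.87% in TUBO cells, and the 19-base form 7.56% and 0.844%. Extension was lower in supernatant, at 42.9%, 40.8% and 52.7% (−1.71 ± 0.20, adjusted p = 9.2e-05, 27.4% called lower), and so was added A at 0.941%, 1.07% and 1.41% (−1.56 ± 0.15, adjusted p = 2.9e-05, 32.1% called lower). Annotated length was higher, at 22.3%, 17.9% and 21.2% (1.56 ± 0.14, adjusted p = 1.9e-05, 19.8% called higher), while 43.4% of arms were called lower. Added C was lower (−1.31, adjusted p = 0.0047, 4.72% called lower and 41.5% higher), and added U, at 0.269%, 0.8% and 0.706%, was higher (1.63, adjusted p = 0.0053, 19.8% called higher). With 425 to 750 reads a library, a share of 0.8% is 6 reads. Without number 3 of both fractions the differences were 2.60 for trimmed, −1.92 for extension, −1.74 for added A, 1.53 for annotated length, −1.34 for added C and 1.43 for added U, each past the threshold.

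Between exosomes and supernatant the trimmed share was lower in exosomes by −1.68 ± 0.24 (log2 odds, limma adjusted p = 2.9e-04, 60.4% of arms called lower). Extension was higher in exosomes (0.83, adjusted p = 0.007, 21.7% called higher), as was added A (0.66, adjusted p = 0.0062, 22.6% called higher). Added U was lower in exosomes (−1.47, adjusted p = 0.007, 19.8% called lower), a call lost without number 3 of both fractions (−1.10, adjusted p = 0.0803), where trimmed, extension and added A gave −1.94, 0.99 and 0.81 and passed. The annotated-length share, high in both, gave 0.11 (adjusted p = 0.596, interval −0.21 to 0.42, 48.1% called in either direction), and added C gave 0.49 (adjusted p = 0.275, 43.4%) and passed without supernatant 2 (0.85, adjusted p = 0.0442). Over the 9 TUBO libraries, exact permutation p was 0.00357 for trimmed, extension and added A and 0.0179 for added U (0.00595 and 0.0223 adjusted over 10 tests), and 0.0214 and 0.0714 for annotated length and added C (0.0286 and 0.0714 adjusted over 4). Less all other arms pooled, the adjusted p over the 3 fractions ran from 0.00476 to 0.0464, but some pairwise differences changed. Added A in exosomes against supernatant turned to −0.15 and overlapped, and extension in exosomes against cells shrank to −0.15 and overlapped. Annotated length and added C in exosomes against supernatant, which had not passed for the arm itself, turned to −0.48 and −0.46. These values too depend on which arms are abundant. Over single arms the medians in exosomes against supernatant were 0.31 for added A, 0.30 for annotated length and −0.83 for added C. The median of extension in exosomes against cells was −0.05.

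The passenger arm ended differently from the guide. Its leading forms are shown as read, with bases past the annotated end or past the hairpin in capitals.
21 bases: caacagcagtcgatgggctgt
22 bases, annotated end: caacagcagtcgatgggctgtc
23 bases, 1 hairpin base past the end: caacagcagtcgatgggctgtcT
23 bases, AA added to the 21-base form: caacagcagtcgatgggctgtAA
Trimmed reads averaged 68.4% ± 11.4 of miR-21a-3p in exosomes, 40.2% ± 3.85 in TUBO cells, 54.3% ± 3.65 in MM3MG-Her2 and 43.4% ± 2.36 in MM3MG (SD, n = 3 each). The 21-base form alone was 41.8% in exosomes, 21.5% in TUBO cells, 19.6% in MM3MG-Her2 and 14.4% in MM3MG. Added A was common on this arm, at 23.4% ± 14.4 in exosomes, 12.1% ± 2.67 in TUBO cells, 26.7% ± 3.04 in MM3MG-Her2 and 27.9% ± 3.99 in MM3MG, against 1.89% to 3.62% of the guide in the same groups. Reads with only A added to a shortened arm, such as the AA form, are counted as trimmed too, but those with a mixed tail are not. The 21-base form with AT added had 12, 10 and 8 reads in MM3MG, 8, 1 and 5 in MM3MG-Her2, 6, 9 and 5 in TUBO cells and 2, 0 and 0 in exosomes. With AAT added it had 7, 15 and 3 reads in MM3MG and 4, 10 and 5 in MM3MG-Her2. The trimmed shares of this arm therefore leave out shortened reads, unequally between groups, and their differences depend on this rule. The added A share was 9.72% to 15% in TUBO cells libraries, 24.1% to 30.1% in MM3MG-Her2 and 23.9% to 31.8% in MM3MG. The annotated 22-base form was 17.5% in MM3MG-Her2 and 7.50% in MM3MG. In the TUBO fractions the arm had too few reads for the share tests. In the cell lines it had enough, at 534 in MM3MG-Her2, 405 in MM3MG and 238 in TUBO cells, but no test is given. The shares of this arm therefore stand as descriptions, and the 14 reads of supernatant allow none.

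Other miRNAs linked with miR-21 through STAT3, AP-1 or NF-kB, or known as breast oncomiRs, did not move as a group with it. Of 12 listed arms, 3 were higher and 7 lower in MM3MG-Her2 than in MM3MG by edgeR, with a median of −1.17 against −0.02 for all arms, where 29.0% and 32.2% of arms were called higher and lower. miR-155-5p, an NF-kB and AP-1 target in immune cells, rose by 2.46 ± 0.29 (log2, SE, n = 3 per group, adjusted p = 5.0e-08), the hypoxia miRNA miR-210-3p by 0.99 ± 0.14 and miR-222-3p by 0.75 ± 0.14. miR-146b-5p, a STAT3 and NF-kB target, fell by 2.26 and miR-10b-5p by 6.09. miR-146a-5p had 0 reads in the 3 MM3MG-Her2 libraries and 25, 30 and 24 in MM3MG.

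In TUBO cells the list ran against miR-21a more often than with it. Against MM3MG, 6 arms were higher and 4 lower (median 0.35, all arms −0.44, 32.7% of arms called higher and 49.0% lower), and against MM3MG-Her2 8 were higher and 4 lower (median 1.35, all arms −0.66, 26.9% and 53.5%). miR-146b-5p was higher than in MM3MG by 2.34 ± 0.12 (log2, SE, n = 3 per group, edgeR adjusted p = 3.3e-15), and miR-221-3p, which represses the cell cycle inhibitor p27, fell by 2.09 as miR-21a-5p did. Between exosomes and cells 3 of 12 were higher and 2 lower (median 0.12, all arms −0.18, 17.6% and 25.4%), miR-210-3p by 1.34 ± 0.44 (adjusted p = 0.0342) and miR-222-3p by −2.01 ± 0.29 (adjusted p = 3.4e-05). Between exosomes and supernatant 3 were higher and 2 lower (median 0.45, all arms 0.15, 35.6% and 31.7%), and between supernatant and cells 3 were higher and 4 lower (median −0.20, all arms −0.22, 35.1% and 37.6%). miR-181b-5p, a STAT3 target, was higher in exosomes than in supernatant by 1.23 ± 0.19 (adjusted p = 2.0e-05).

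Over the 15 libraries, the arms whose log2(CPM + 1) followed miR-21a-5p most closely among 209 arms with at least 100 CPM in some group were miR-34b-5p (Pearson r = 0.96), miR-322-5p (0.95), miR-31-5p (0.95), miR-26a-2-3p (0.94), let-7i-5p (0.93) and miR-186-5p (0.93). miR-34b-5p averaged 15.7 CPM in exosomes, 0 in supernatant, 45.8 CPM in TUBO cells, 445 CPM in MM3MG-Her2 and 337 CPM in MM3MG. let-7i-5p differed from miR-21a-5p within the MM3MG lines, at 29108 CPM in MM3MG-Her2 and 55582 CPM in MM3MG. miR-21a-3p itself came 18th (0.88). The lowest values belonged to miR-151-3p (−0.96), miR-1981-5p (−0.96) and miR-92b-3p (−0.95), which were most abundant in supernatant, where miR-92b-3p averaged 13873 CPM against 1180 CPM in TUBO cells. Libraries of a group share their source and values share a total, so these coefficients describe the 5 groups more than 15 independent points.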

How the data were processed

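Per the labels' protocols, TRIzol total RNA from 3 libraries in each of 5 groups was ligated to 3′ and 5′ adapters, reverse transcribed and amplified, and bands of miRNA size were excised. The protocols name no molecular identifiers, and the Wilson interval of a single library covers counting error only. Intervals and p-values of fitted differences rest on the spread between libraries, estimated over the 3 groups of a fit together. The authors deposited counts: distinct insert sequences with whole-number reads, adapters removed and uncalled bases kept. Which trimming tool and genome build were used, the sources used here do not give.

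Reads of 18 to 26 bases were assigned by their first 18 bases to RefSeq GRCm38.p6 mature miRNAs. A further 15 arms came from GENCODE M21 hairpins (9.22% of miRNA reads), with an assumed length of 22 bases. They counted in the denominator and entered the fits, the percentages called and the pooled shares like other arms. Arms with identical first 18 bases share a joint name. CPM scales a library to 1000000 miRNA reads. Levels were tested with edgeR 4.0.16 (TMM, filterByExpr, robust quasi-likelihood) in R 4.3.3, in 1 fit of the 9 cell libraries and 1 of the 9 TUBO-derived libraries. Shares of 3′ classes (arms with 500 or more reads) and arm ratios (20 or more reads on both arms) were tested as log2 values, with 0.5 reads added, by limma 3.58.1. P-values were adjusted over all arms tested (Benjamini-Hochberg, threshold 0.05). DESeq2 1.42.0, other scalings, filters, match rules, a replicate block and leaving out libraries were alternatives. Exact two-sided permutation tests used Python 3.11.15. Scripts were tested on simulated data.

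Members and lists were chosen with earlier results of these data known. The isoforms named had at least 1% of an arm's reads in some group, and the arms named by likeness were the 6 highest and 3 lowest. Replicate pairs differed beyond sampling noise, with chi-square 4.21 to 97.4 times its degrees of freedom.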

Additional observations from a re-analysis of the deposited data

Results flagged for a closer look

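Reads of the Mir21a hairpin outside the match rule were above the 3 reads that a count of 0 allows, summed over the 15 libraries. On the guide, 3766 reads started 1 base into miR-21a-5p, 1312 started 1 base before it, 292 started 2 bases in and 72 started 3 bases in. The 1-base shift was 0.715% of the arm in exosomes, 0.447% in supernatant (7 reads), 0.654% in TUBO cells, 0.583% in MM3MG-Her2 and 0.629% in MM3MG. On the passenger, 194 reads started 1 base in and 151 started 2 bases in. These are larger shares of that arm: the 1-base shift averaged 16.0% ± 8.93 in exosomes, 26.3% ± 8.21 in TUBO cells, 12.6% ± 3.19 in MM3MG-Her2 and 11.4% ± 1.33 in MM3MG (SD, n = 3 each). The means rest on 14, 63, 69 and 46 reads in that order, and differences between groups were not tested. A further 299 reads lay elsewhere in the hairpin, none of them in supernatant, and 38 started at an arm but were longer than 26 bases.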

How the results depend on the processing

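Of 936 alternative values for 60 results, 880 kept direction and side of the threshold, 29 fell short of it, 9 newly passed, 15 changed sign and 3 counts moved by over 1.5 times. For 42 results no alternative changed any of these. Differences are log2, first-named group minus the second. With all reads as library size, miR-21a-5p in MM3MG-Her2 against MM3MG changed sign to −0.0092, and miR-21a-3p passed in exosomes against cells (−1.06) and against supernatant (1.58). With 1 substitution allowed the first was 0.16. miR-21a-5p in exosomes against cells changed sign with 1 substitution (0.23), no filter (0.12), starts within 1 base (0.20) and without number 3 of exosomes and of supernatant (0.40), an alternative added after seeing the data. Without those libraries the arm ratio (0.62) and trimmed share (0.66) of that comparison passed. miR-21a-3p there passed with DESeq2 (−0.67). The cause of these changes was not tested.

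Leaving out 1 library at a time, miR-21a-5p in exosomes against cells ran from −0.091 to 0.32, miR-21a-3p in supernatant against cells from −1.18 to −0.94, arms called in exosomes against cells from 53 to 102, and in that comparison the arm ratio from 0.61 to 0.73 and the trimmed share from 0.56 to 0.67. Signs turned for added A in TUBO cells against MM3MG-Her2 (−0.13 to 0.048), added U in TUBO cells against MM3MG (−0.24 to 0.022) and annotated length in exosomes against supernatant (−0.011 to 0.19). The replicate numbers did not clearly pair the libraries: correlations of same-numbered deviations ran from −0.12 to 0.26. They were highest in exosomes against supernatant (0.07, 0.14 and 0.26), where different numbers averaged −0.07. For these fractions a pairing is therefore not settled. With the replicate block miR-21a-3p in supernatant against cells fell short (−0.97) and added A in TUBO cells against MM3MG did too (0.43), and it changed no other call. Depth limits the supernatant most, where 4 or 5 reads of miR-21a-3p give each ratio.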

Other observations

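An uncalled base stood at position 23 of some guide reads. The form tagcttatcagactgatgttgaN made up 3.05% of miR-21a-5p reads in exosomes, 2.21% in supernatant, 3.94% in TUBO cells, 4.09% in MM3MG-Her2 and 3.80% in MM3MG. Counted as following the hairpin, such bases raised the extension share to 63.1% in exosomes, 47.8% in supernatant, 77.4% in TUBO cells, 80.5% in MM3MG-Her2 and 72.8% in MM3MG.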
